A study of Mus musculus with 8 samples.

Results

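Broad H3ac domains are stretches of chromatin in which acetylated histone H3 (H3ac) was enriched over 4000 bp or more. They were chosen by merging the peaks of 4 libraries wherever they overlapped by at least 1 bp on chromosomes 1 to 19, X and Y, and keeping every region with at least 4000 bp under peaks in each of the 2 Gel libraries. This left 445 domains of 81544 merged regions. The cells were RAW 264.7, a mouse macrophage-like line, labelled Gel or CuNZ@Gel, with 2 immunoprecipitated libraries per label. The study concerns a sprayable hydrogel carrying a nanozyme, and the libraries ask whether H3ac in cells labelled CuNZ@Gel differs from that in cells labelled Gel. Per the labels' protocols, exposure to extracts lasted 48 h before fixation in 1% formaldehyde, but the protocol shared by all samples names CuNZ@Gel extracts only, so what the Gel cells received is known from their treatment label alone. The labels do not tie the paired libraries to separate cultures, and their spread, on which p-values rest, may be technical. All positions are on GRCm39, 1-based. The lists name no genes and were matched to no annotation, so domains are given by position and the labelled cell type was not checked against its marker genes. Paired values below are replicates 1 and 2 of a group, in that order.

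Acetyl groups on the tail of histone H3 are added by acetyltransferases and removed by deacetylases, and they are read by proteins with bromodomains. The mark lies over active promoters and enhancers. Most of its sites are narrow, while wide stretches are known from genes that are highly transcribed or that define a cell type, and from clustered enhancers. A peak caller reports such a stretch as 1 long peak where the signal stays above its threshold, and as several peaks where the signal dips below it. A gap between peaks is therefore a place where enrichment was not called, which is not the same as a place without acetylation.

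The domains made up little of each list by number but more of it by length. For Gel, 1.11% and 1.06% of all peaks and 5.71% and 5.56% of all bases under peaks lay in them. For CuNZ@Gel, 2.79% and 3.48% of the peaks and 7.51% and 8.13% of the bases did. The lists also differed in depth. Their commonest background, which scales with fragment number and fragment length, was 4.62 and 4.28 fragments for Gel against 3.45 and 2.46 for CuNZ@Gel. The part of depth in the results below was not tested. Depth thus moved with the groups, and the shallower replicate 2 of each pair had less covered width in the domains. Peaks per domain were more numerous in the shallower CuNZ@Gel library but less numerous in the shallower Gel library.

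None of the 445 domains was without a peak in CuNZ@Gel. All of them had peaks in both CuNZ@Gel libraries, but those peaks covered less of the domain. Domains had a median of 5051 and 4947 bp under Gel peaks, with ranges of 4002 to 14221 and 4013 to 14297 bp. The corresponding medians for CuNZ@Gel were 4116 and 3846 bp, with ranges of 1369 to 13770 and 1109 to 13367 bp. Averaged over domains, Gel had 5416 ± 21.2 bp and CuNZ@Gel had 4241 ± 248 bp (SD, n = 2). Relative to the mean Gel width, 81.5% was covered in CuNZ@Gel replicate 1 and 75.1% in replicate 2. Over the 21909 regions with a peak in all 4 libraries, which include the domains, these shares were 76.0% and 68.4%. They were 78.3% and 71.3% over the 3367 other regions with 2000 bp or more in both Gel libraries. Less width in CuNZ@Gel was thus not particular to the domains. Because the Gel widths chose the domains, the widths of the domains are a description and carry no test.

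**Figure D1:**
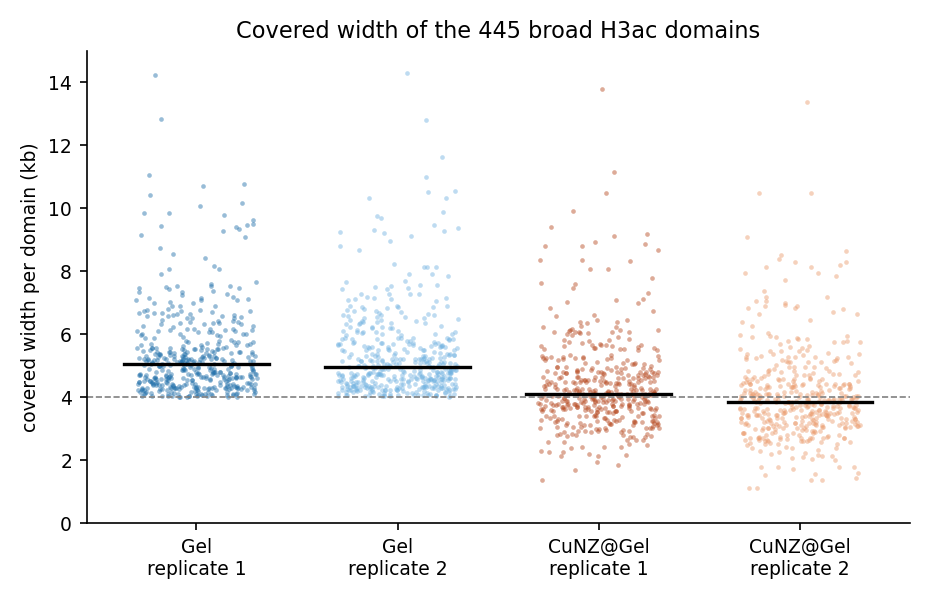
Bases under peaks (kb, y axis) in each of the 445 domains, 1 point per domain, for the 4 libraries (x axis); black bars are medians and the dashed line is the 4 kb limit that both Gel libraries had to reach. Medians lie at 5051 and 4947 bp in the Gel libraries and at 4116 and 3846 bp in the CuNZ@Gel libraries, where many points fall below the line.

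Both CuNZ@Gel widths lay below both Gel widths in 412 domains, or 92.6%, and above both in 3. Over the 21909 regions with a peak in all 4 libraries these shares were 74.5% lower and 1.26% higher. Among the 3367 other regions with 2000 bp or more in both Gel libraries they were 88.9% and 0.416%. Nothing is read from the comparison, since choosing on Gel width favours wide Gel values. How far it does so can be seen by choosing on a single Gel library and measuring in the other. Of 498 regions with 4000 bp or more in Gel replicate 1, 445 also reached that width in Gel replicate 2, 253 in CuNZ@Gel replicate 1 and 191 in CuNZ@Gel replicate 2. Their mean width was 5302 bp in Gel replicate 1, which chose them, and 5225 bp in Gel replicate 2, which did not, so the library that chose them had 101.5% of the other's width. CuNZ@Gel replicates 1 and 2 had 81.6% and 74.8% of that Gel replicate 2 width. Choosing on Gel replicate 2 gave 81.6% and 75.1% of the width in Gel replicate 1.

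The opposite rule, 4000 bp or more in both CuNZ@Gel libraries, found 183 regions. Of these, 178 were among the 445 domains. The 183 regions were chosen to be wide in CuNZ@Gel, and they still had means of 6322 and 6280 bp in the Gel libraries against 5601 and 5318 bp in the CuNZ@Gel libraries. Of the 445 domains, 181 fell under 4000 bp in both CuNZ@Gel libraries. Both CuNZ@Gel libraries kept at least 90% of the mean Gel width in 47 domains, and both kept under 50% in 9.

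The domains were broken into more peaks in CuNZ@Gel. A domain held on average 1.46 and 1.44 separate peaks in Gel against 2.51 and 2.71 in CuNZ@Gel. The group means were 1.45 ± 0.017 and 2.61 ± 0.14 (SD, n = 2), a difference of 1.16 peaks. Choosing on Gel width favours unbroken Gel domains, so peak numbers and gaps, like widths, are given as a description with no test. In the 498 regions chosen on Gel replicate 1 alone, Gel replicate 2 had 1.47 peaks per region and the CuNZ@Gel libraries 2.48 and 2.68. In the 183 regions chosen on CuNZ@Gel width, Gel had 1.44 and 1.48 peaks and CuNZ@Gel 2.43 and 2.62. A domain was a single peak in 65.8% and 64.9% of cases in the Gel libraries, and in 22.0% and 16.4% in the CuNZ@Gel libraries. Domains with 3 or more peaks made up 10.3% and 8.31% in Gel and 43.6% and 51.7% in CuNZ@Gel. With every list cut to the length of the shortest the difference was 1.23 peaks, and with peaks at or above the median score of their list it was 0.557 peaks.

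**Figure D2:**
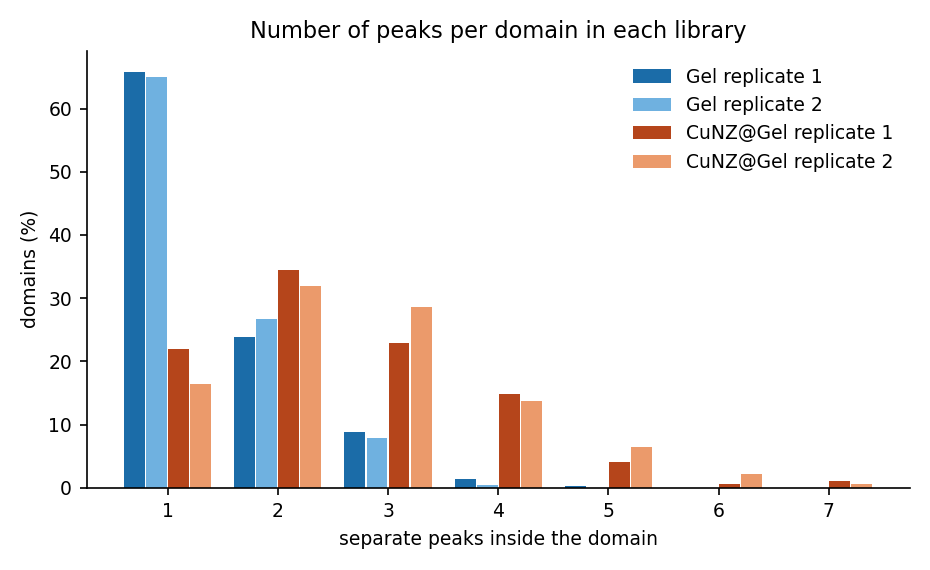
Share of the 445 domains (y axis, %) by the number of separate peaks inside the domain (x axis) in the 4 libraries. A single peak is the commonest state in the Gel libraries (65.8% and 64.9% of domains), while the CuNZ@Gel bars extend to 7 peaks.

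In 189 domains, or 42.5%, both CuNZ@Gel libraries had more peaks than both Gel libraries, and in 0 domains both had fewer. Over all regions with a peak in all 4 libraries the shares were 6.86% with more and 0.429% with fewer. Shorter regions have less room for several peaks: among 3367 other regions with 2000 bp or more in both Gel libraries, 21.6% had more peaks in both CuNZ@Gel libraries. Of 208 domains that were 1 unbroken peak in both Gel libraries, 119 were split in both CuNZ@Gel libraries, 58 in 1 of them and 31 in neither. Domains picked in this way can only stay unbroken or be split. In the other direction, 40 domains were 1 peak in both CuNZ@Gel libraries, and 31 of these were 1 peak in both Gel libraries. The longest unbroken peak had a median of 4746 and 4627 bp in the Gel libraries and of 3125 and 2719 bp in the CuNZ@Gel libraries. In 60 domains no CuNZ@Gel peak reached 2000 bp in either library, which was the case for 0 domains in Gel.

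Gaps inside the domains were more numerous and longer in CuNZ@Gel. The Gel libraries had 206 and 195 gaps and the CuNZ@Gel libraries 672 and 763. Gap length had a median of 223 and 229 bp in Gel and of 261 and 266 bp in CuNZ@Gel, and 12 and 19 Gel gaps against 138 and 191 CuNZ@Gel gaps measured 500 bp or more. Peaks of a list lay at least 167 and 170 bp apart in Gel and 157 and 161 bp in CuNZ@Gel, so shorter dips cannot appear as gaps. The lowest −log10 p of a peak was 3.12 in each Gel list and 3.37 and 3.41 in the CuNZ@Gel lists. These limits thus moved with the groups, and their part in gaps and widths was not tested. Summed over a domain, gaps took 124 ± 0.37 bp for Gel and 651 ± 100.2 bp for CuNZ@Gel (SD, n = 2), a difference of 527 bp that was 263 bp with peaks at or above the median score. Per length, gaps took 2.23% and 2.25% of the span from the first to the last covered base in Gel against 11.6% and 15.1% in CuNZ@Gel. The 3367 other regions with 2000 bp or more in both Gel libraries had gap shares of 1.87% in each Gel library and 8.70% and 10.8% in CuNZ@Gel. Whether the domains differ from those regions was not tested. Both CuNZ@Gel libraries had more gap bases than both Gel libraries in 272 domains, or 61.1%, where all regions with peaks in all 4 libraries gave 9.82%. Nothing is read from this or from the share with more peaks, for the same reason as for widths.

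Gap bases of 1 CuNZ@Gel library were uncovered in the other more often than the bases it covered. Of the gap bases of CuNZ@Gel replicate 1, 72.8% were uncovered in replicate 2 as well, while 13.9% of the bases that replicate 1 covered were uncovered in replicate 2. In the other direction the shares were 51.2% and 6.43%. The fewer gaps of the Gel libraries rarely coincided with each other: 8.68% of the gap bases of Gel replicate 1 were uncovered in Gel replicate 2, against 4.58% of its covered bases. This low share is partly set by the rule, which requires both Gel libraries to be wide. The places where Gel replicate 1 had a gap were, however, mostly uncovered in CuNZ@Gel, at 70.2% in replicate 1 and 79.6% in replicate 2, against 19.9% and 26.0% of the bases it covered. The Gel replicate 2 gaps gave 68.4% and 79.9%, against 19.6% and 25.7%.

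Lost coverage was divided almost evenly between the inside and the ends of the domains. Of 2306 kb covered in both Gel libraries, 72.7% were covered in both CuNZ@Gel libraries, 14.4% in 1 and 12.9% in neither. Of the 297 kb in neither, 52.4% lay inside, between bases that a CuNZ@Gel library covered, and 47.6% lay at the ends. Bases of this kind lay inside 312 domains and at the ends of 384, and 21 domains had none. Internal stretches of at least 200 bp, absent from both CuNZ@Gel libraries, numbered 283 and lay in 205 domains. The longest measured 1694 bp. Conversely, 0.141% of the bases covered in both CuNZ@Gel libraries were covered in neither Gel library. The low share is partly set by the rule, which chose regions widely covered in both Gel libraries, so it is not read against the loss.

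**Figure D3:**
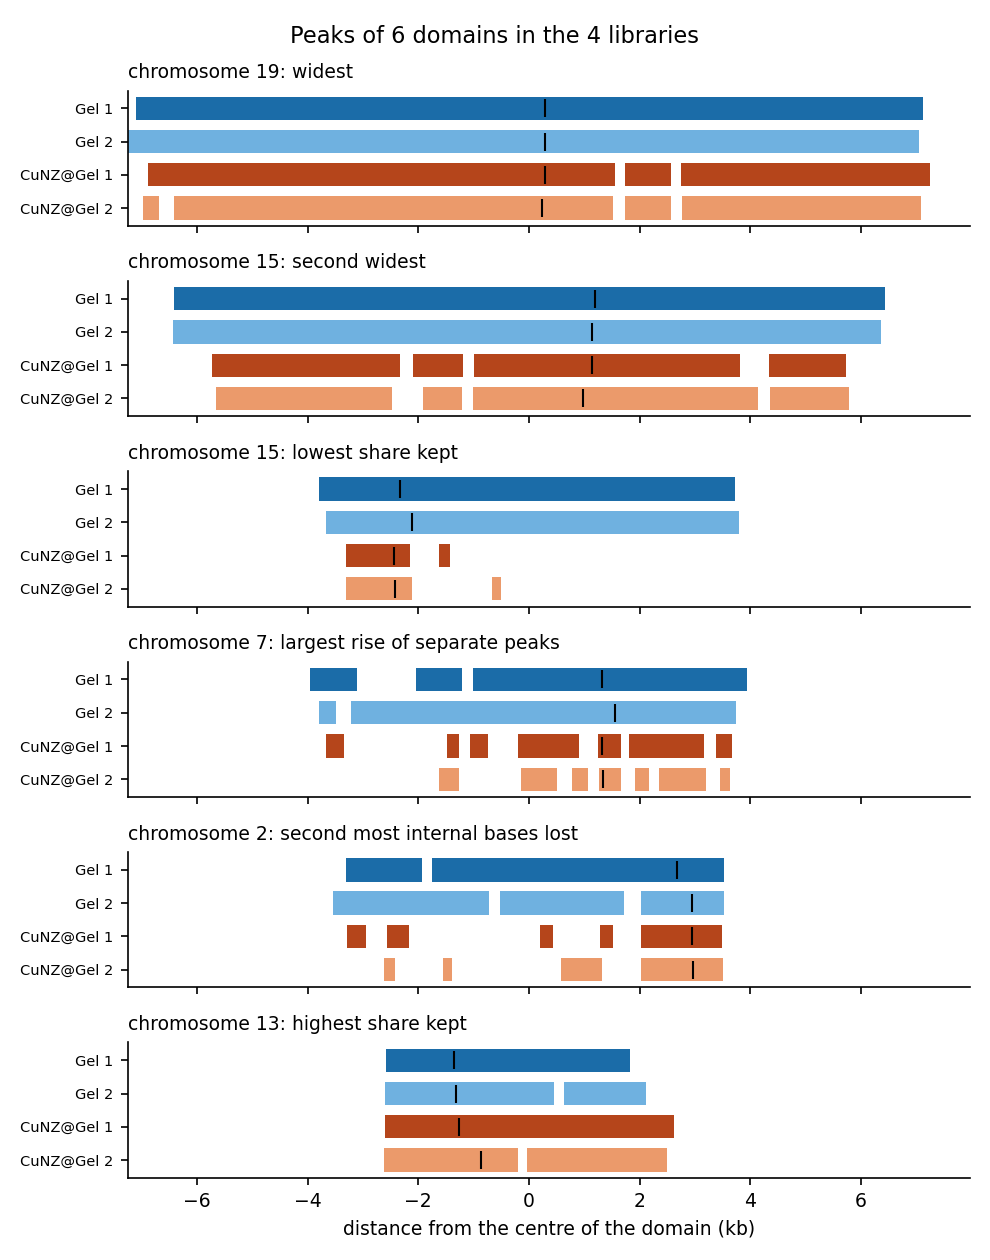
Peaks (bars) in the 4 libraries for 6 domains, drawn to scale by distance from the domain's centre (x axis, kb); black ticks are the summits of the peak with the highest fold of each library. The first 3 domains and the last are unbroken in Gel replicate 1, and the chromosome 15 domain with the lowest share kept retains 2 short peaks in each CuNZ@Gel library.

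Coverage in CuNZ@Gel decreased with distance from the summit, the point of highest fragment number in the domain. Within 250 bp of the Gel replicate 1 summit, 97.9% and 96.8% of its covered bases were also covered in CuNZ@Gel replicates 1 and 2. From 1000 to 1500 bp these shares were 85.9% and 79.0%, and beyond 4000 bp they were 61.9% and 53.2%. Gel replicate 2 covered 99.6%, 97.1% and 89.5% of the same bases, so the decrease was smaller between the Gel libraries. That smaller decrease is partly set by the rule, which requires both Gel libraries, but not the CuNZ@Gel libraries, to be wide. With Gel replicate 2 as the reference the CuNZ@Gel shares ran from 97.7% and 96.6% near the summit to 60.7% and 52.3% beyond 4000 bp. In 441 domains both Gel summits were covered in both CuNZ@Gel libraries. The highest summits of Gel replicate 1 and CuNZ@Gel replicate 1 lay within 250 bp of each other in 317 domains, and the other pairs of a Gel and a CuNZ@Gel library gave 319, 335 and 337. The Gel replicates gave 366 and the CuNZ@Gel replicates 326, so pairs across groups lay on both sides of the CuNZ@Gel pair.

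**Figure D4:**
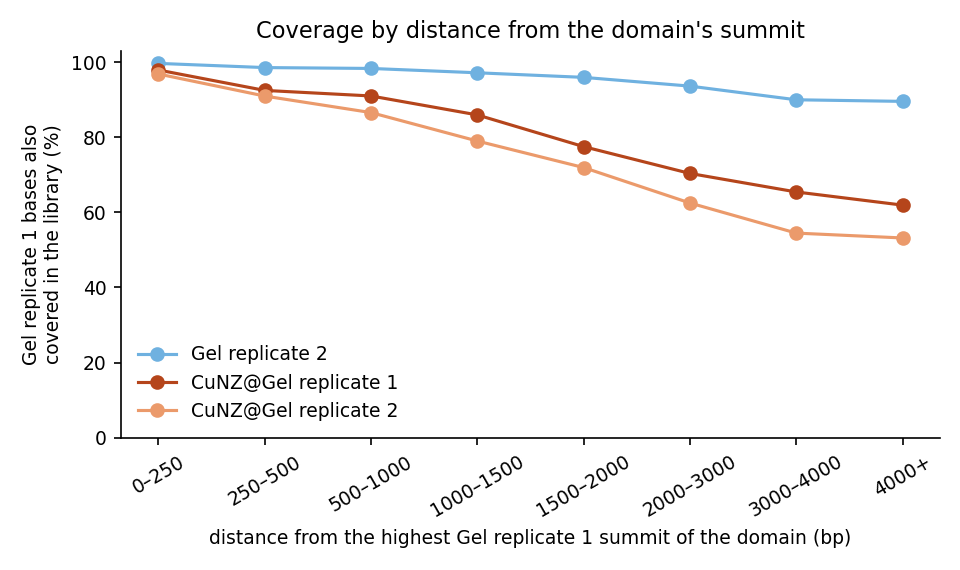
Share of the bases covered in Gel replicate 1 that were also covered in each other library (y axis, %), by distance from the highest Gel replicate 1 summit of the domain (x axis, bp), summed over the 445 domains. Gel replicate 2, which the rule also required to be wide, stays between 89.5% and 99.6%, and the CuNZ@Gel libraries go down to 61.9% and 53.2%.

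The widest domain lay on chromosome 19 from 5843803 to 5858291, with 14221 and 14297 bp in Gel against 13770 and 13367 bp in CuNZ@Gel. It was 1 peak in both Gel libraries and 3 and 4 peaks in the CuNZ@Gel libraries, so it was split with little loss of width (95.2% kept). The second widest, on chromosome 15 from 85548533 to 85561393, had 12843 and 12798 bp in Gel, each as a single peak, and 10494 and 10470 bp in CuNZ@Gel, each as 4 peaks. There both the ends (1272 bp) and the inside (634 bp) were lost from both CuNZ@Gel libraries. The third, on chromosome 5 from 53743784 to 53756012, had 11046 and 11623 bp in Gel and 11159 and 10473 bp in CuNZ@Gel, so its groups overlapped. Its difference of means, -518.5 bp, was -2521.5 bp with peaks at or above the median score. Another, on chromosome 3 from 88049694 to 88060808 had 10758 and 11003 bp in Gel against 8321 and 8296 bp. Among the 10 widest domains the share kept ran from 56.1% to 95.4%. The lowest of these was the domain on chromosome 2 from 79085272 to 79095692, which was 1 peak in both Gel libraries and 4 and 6 peaks in CuNZ@Gel, with 3375 and 2425 bp of gaps.

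The domains that kept least lost their width in different ways. The lowest share, 18.2%, belonged to the domain on chromosome 15 from 8996619 to 9004197. Of its bases covered in both Gel libraries, 4586 bp were lost at the ends and 1246 bp inside, and 2 peaks remained in each CuNZ@Gel library. On chromosome 2 from 145664169 to 145670790, 24.5% was kept, with 4763 and 6601 bp in Gel and 1676 and 1109 bp in CuNZ@Gel. That domain had the most internal loss of all, 2618 bp, against 617 bp at its ends. The domain on chromosome 2 from 163479357 to 163486419 lost 2492 bp inside and 45 bp at its ends, and held 5 and 4 CuNZ@Gel peaks against 2 and 3 Gel peaks. On chromosome 12 from 84221264 to 84226512, widths were 4906 and 5105 bp in Gel against 2259 and 1531 bp. On the X chromosome from 166109075 to 166114049 they were 4711 and 4596 bp against 1834 and 1774 bp, in 2 peaks per Gel library and 6 and 3 per CuNZ@Gel library.

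The largest difference of mean peak number was in a domain on chromosome 7 from 24973219 to 24981118. It held 3 and 2 peaks in Gel and 7 in each CuNZ@Gel library, with widths of 6634 and 7272 bp against 4036 and 2987 bp. Its longest peak measured 4968 and 6967 bp in Gel and 1355 and 857 bp in CuNZ@Gel. In the chromosome 8 domain from 122558365 to 122564850, 3 and 1 peaks stood against 7 and 5. On chromosome 3 from 88400499 to 88406013, 1 and 2 peaks stood against 4 and 7, and on chromosome 5 from 127686044 to 127694472, 2 and 4 stood against 7 and 6. These domains are extremes picked for this difference.

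Few domains were wider in CuNZ@Gel. The 3 whose CuNZ@Gel widths exceeded both Gel widths lay on chromosomes 13, 11 and 8. The first, from 5911546 to 5916784, had 4414 and 4543 bp in Gel and 5226 and 4945 bp in CuNZ@Gel. The second, from 50097004 to 50102896, had 5209 and 5228 bp against 5623 and 5774 bp, and its peak number was 2 and 3 in Gel and 2 and 1 in CuNZ@Gel. The third, from 84926870 to 84931375, had 4182 and 4034 bp against 4480 and 4319 bp and was a single peak in every library. Near the width limit, the domain with the smallest qualifying width had 4002 and 4227 bp in the Gel libraries (chromosome 7 from 80641849 to 80646152), and the nearest region left out had 3974 and 4308 bp (chromosome 17 from 35412327 to 35416634). Their CuNZ@Gel widths were 3033 and 2930 bp, and 3064 and 3384 bp.

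By the authors' fold enrichment, used within each list, the domains were strong but were not simply the strongest regions. The highest fold in a domain had a median of 22.3 and 22.1 in the Gel lists, where the median over all regions with a peak was 3.92 and 3.78. It was 15.5 and 14.8 in the CuNZ@Gel lists, with 4.50 and 4.92 over all regions. The median domain stood at percentile 96.7 and 96.9 of its list in Gel and 94.3 and 93.5 in CuNZ@Gel. Among the 445 regions of highest fold in a list, 83 to 86 were broad domains. Where a domain was split, its weakest peak had a median fold of 4.27 and 4.35 in Gel and 4.05 and 4.19 in CuNZ@Gel, above the median of all regions in the Gel lists and below it in the CuNZ@Gel lists. The strongest peak exceeded the weakest by a median of 4.73 times in both Gel lists and by 3.56 and 3.19 times in the CuNZ@Gel lists.

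Domains of higher fold had a somewhat larger share of the Gel replicate 2 width in CuNZ@Gel. The domains were put into 4 groups by Gel replicate 1 fold, and width was taken relative to Gel replicate 2. CuNZ@Gel replicate 1 had 79.3%, 79.5%, 83.4% and 84.6% of that width from the weakest to the strongest group, and CuNZ@Gel replicate 2 had 70.3%, 73.6%, 77.4% and 79.4%. Grouped by Gel replicate 1 width instead, the shares went from 78.5% to 83.9% and from 72.2% to 77.6% between the narrowest and the widest group. Peak number in CuNZ@Gel went from 2.06 to 3.08 and from 2.24 to 3.31, while Gel replicate 1 went from 1.46 to 1.52 and Gel replicate 2 from 1.18 to 1.67. The rule leaves out Gel replicate 2 widths under 4000 bp, which bears most on the narrowest group. Nothing is therefore read from the shares by width. The fold groups rest on the same Gel replicate 2 widths, with medians of 4797.5, 5020, 4892 and 5218 bp from weakest to strongest. The part of width in the shares by fold was not tested. These are descriptions over domains that share libraries.

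Summits were lower in CuNZ@Gel over most domains. Summit height is the highest number of fragments in the domain divided by the library's commonest background, a quantity the width rule did not use, although wide regions are also tall. Its median over the domains was 28.0 and 28.2 in Gel against 20.0 and 20.8 in CuNZ@Gel, where the median summit held 129 and 121 against 69 and 51 fragments. limma called 299 domains, or 67.2%, lower at an adjusted p of 0.05 and 0 higher (340 lower and 1 higher at an unadjusted p of 0.05). Over all 21909 regions, 28.1% were called lower and 0.908% higher, and 37.6% were lower at an unadjusted p of 0.05. The median change was -0.45 on the log2 scale over the domains and -0.27 over all regions, so regions at large were lower as well. With every library centred on its median over all regions, limma called 59 domains (13.3%) lower and 2 higher, beside 800 lower and 491 higher of all 21909 regions. Without Gel replicate 1 the median change was -0.45 over the domains and -0.27 over all regions. It was -0.45 and -0.27 without Gel replicate 2. These fits take the spread of the CuNZ@Gel pair for the single Gel library left, so nothing is read from their calls. Errors were also smaller for domains, with a median SE of 0.13 against 0.20 over all regions, which favours calls. 

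**Figure D5:**
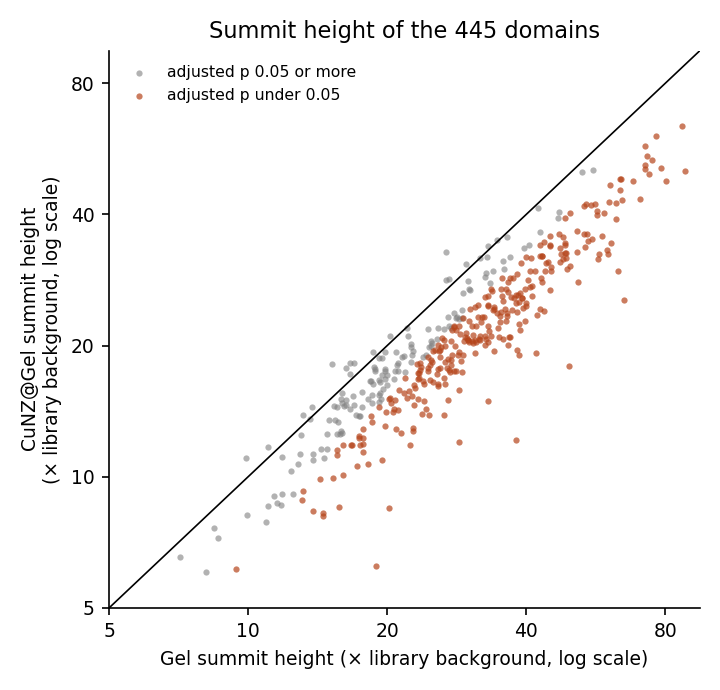
Summit height of the 445 domains in multiples of the library background, as geometric means of the 2 Gel (x axis) and the 2 CuNZ@Gel libraries (y axis), both on log scales; the line marks equal heights and orange points have a limma adjusted p under 0.05. All 299 orange points lie below the line.

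The largest fall of height among the domains, chosen after the values were seen, was on chromosome 10 from 91003068 to 91008498. Its heights were 40.1 and 35.9 in Gel and 12.5 and 11.8 in CuNZ@Gel, a log2 change of -1.65 (SE 0.14, limma adjusted p = 6.89e-14). The chromosome 2 domain from 163479357, with its loss inside, fell from 49.2 and 49.7 to 19.7 and 16.3 (log2 change -1.46, SE 0.12, limma adjusted p = 6.89e-14). The widest domain, on chromosome 19 from 5843803, kept its width but had heights of 74.1 and 75.4 against 51.3 and 55.4 (log2 change -0.49, SE 0.090, limma adjusted p = 3.94e-05). The chromosome 13 domain that was wider in CuNZ@Gel had 30.3 and 33.4 against 32.8 and 30.9, so its groups overlapped (log2 change 0.0010, SE 0.12, limma adjusted p = 0.996). For the chromosome 12 domain from 84221264, which kept 37.9% of its width, heights of 8.02 and 6.30 stood against 5.51 and 7.73 and did not pass the test (limma adjusted p = 0.719). Its 6.30 in Gel replicate 2 and 5.51 in CuNZ@Gel replicate 1 were the lowest heights of any domain in those libraries. The part of low height in this result was not tested. Width and height did not always fall to a like degree, as in the widest domain.

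Broad domains occurred on every chromosome but Y, which had 4 regions with peaks in all 4 libraries. Per 100 such regions, chromosome 3 had 3.26 domains (40 of 1228) and the X chromosome 0.522 (2 of 383). A neighbour within 50 kb was found for 64 domains, in 31 groups of which none exceeded 3. Each of the 2 groups of 3 was narrower in CuNZ@Gel. On chromosome 3 from 89254000 to 89301000 they summed to 13416 and 13223 bp in Gel against 12053 and 10631 bp in CuNZ@Gel. The group on chromosome 7 from 79672571 to 79709059 summed to 16516 and 15278 bp against 11798 and 10714 bp.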

How the data were processed

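H3ac was measured by chromatin immunoprecipitation and sequencing, and each of the 4 immunoprecipitated libraries has a deposited peak list on GRCm39. The submitters' processing notes name MACS2 2.2.8, SAMtools 1.17, deepTools 3.5.6 and fastp. Which aligner and which calling options were used is not stated there or in the labels. Each deposited list gives, per peak, a −log10 q, a −log10 p, the fold enrichment (a ratio to background) and a score. The score equals the −log10 q times 10, cut to a whole number, for at least 99.9856% of the peaks of a deposited list. The fold is the authors' own value and was used within its list only. The 2 deposited group lists entered nothing, nor did the 4 input libraries (not analysed here).

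Regions, covered width, separate peaks and gaps were computed with pandas 2.3.3 and numpy 2.4.6, and 100% of 500 simulated domains were measured correctly. A gap is an uncovered stretch between the first and the last covered base of a domain in a library. Because a peak's fold and p follow from its summit fragments and its background, both were solved per peak, which succeeded for 100% of peaks at a relative tolerance of 0.0001. Summit height is the highest number of summit fragments in a region divided by the commonest background of its list. Log2 heights of 21909 regions with peaks in all 4 libraries were fitted in R 4.3.3 with limma 3.58.1, using its trend and robust options and Benjamini-Hochberg adjustment over all regions (threshold 0.05). In simulated data for this fit, 1.50% of 200 regions lower by 0.5 on the log2 scale were called, and 96.5% of 200 lower by 1. With 4382 regions changed, 35.1% were called at 0.5 and 99.3% at 1. The simulation gave every region the same spread and left the other regions unchanged, unlike the data. These shares are therefore not the share of domains that the fit would find. The exact permutation tests planned for peak number and gaps are not reported, because the rule on Gel width bears on both measures.

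The width rule, the rule for named regions (the widest, the extremes of width kept, peak number and internal loss, and those nearest the threshold) and all measures were chosen with earlier results of these data known. Alternatives tried were other width thresholds, stricter or equally long lists, joined peaks, other limma options, a replicate block and leaving out each library. The gene table and promoter sequences at hand are of another build (GRCm38), so coordinates were not matched to genes, the planned gene and marker lists were not used, and no sequence is printed.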

Additional observations from a re-analysis of the deposited data

How the results depend on the processing

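Less covered width, more separate peaks and more gap bases in CuNZ@Gel held in every alternative run. The domains numbered 1232 at a width threshold of 3000 bp, 88 at 6000 bp and 183 with the rule on the CuNZ@Gel libraries, which kept 86.6% of the Gel width. Of the first 2 sets, 90.7% and 93.2% were narrower in both CuNZ@Gel than in both Gel libraries. Without 1 of the Gel libraries the domains numbered 430 to 436. Without any 1 library the share kept was 75.3% to 81.7%, the share narrower 93.2% to 97.0%, the difference 1.05 to 1.31 peaks and 452 to 591 gap bp. With peaks at or above the median score of their list the difference was 0.557 peaks and 263 bp; with peaks within 200 bp joined it was 0.895 peaks. The domains called lower in summit height by limma numbered 164 without trend and robust, 59 when centred on the median of all regions, 778 and 60 at 3000 and 6000 bp, and 169 to 300 without any 1 library. Those called higher by limma numbered 2 when centred, 1 with the stricter score, 4 at 3000 bp, and 0 to 1 without any 1 library. Fits without 1 library take the spread of the complete pair for the single library left in the other group. Nothing is therefore read from their numbers of calls. The replicate number as a replicate block gave 302 domains lower, beside 6381 over all regions. Deviations of same-numbered libraries correlated at 0.013, and no label ties a number to a shared culture or day. Of 175 width differences for 25 named regions under 7 alternatives, 152 moved by no more than the replicate spread, 22 moved by more and 1 changed sign. With the median-score limit, the difference went from -518.5 to -2521.5 bp for the chromosome 5 domain from 53743784, from -1445 to -3804 bp for the chromosome 3 domain from 88400499, and from -1888.5 to -3703.5 bp for the chromosome 5 domain from 127686044. For the chromosome 11 domain from 50097004, wider in CuNZ@Gel, it went from 480 to 1038 bp with that limit and with equal list length. With joined peaks it went from -4547 to -7144 bp for the chromosome 2 domain from 79085272. The sign changed for the chromosome 6 domain from 38327363 to 38332986, where the width in CuNZ@Gel minus Gel was 116.5 bp, which gave -23 bp without CuNZ@Gel replicate 1 and up to 256 bp without replicate 2. The cause was not tested. Boundaries cannot be recomputed at equal depth from peak lists, so depth limits every width given here.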

Other observations

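Of the 183 regions with 4000 bp or more in both CuNZ@Gel libraries, 5 were not broad in both Gel libraries. The most unequal lay on chromosome 6 from 123237805 to 123242849, where Gel peaks covered 1705 and 1562 bp and CuNZ@Gel peaks 5041 and 4739 bp (replicates 1 and 2 in order). A chromosome 4 region from 116542172 to 116547707 had 3444 and 4044 bp against 4742 and 4910 bp, and a chromosome 10 region from 51366422 to 51371330 had 3541 and 3611 bp against 4397 and 4229 bp. On unplaced scaffolds, 1 region met the width rule, with 4682 and 4865 bp in Gel and 4681 and 4683 bp in CuNZ@Gel.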
